A study of Mus musculus with 214 samples.

Results

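The transcripts of 48 cell division and DNA replication genes were followed in mouse liver after neonatal exposure to N-nitrosodimethylamine (NDMA), a methylating liver carcinogen. The 48 genes were chosen by symbol from well-known members of the replication and mitosis machinery, and every one of them is listed in both deposited tables, among 18647 genes for wild type mice and 19540 genes for Mgmt-/- mice. By role, 13 act in DNA replication or nucleotide supply, 4 in the passage from G1 to S phase, 9 in entry into mitosis, 4 in the spindle checkpoint and mitotic exit, 6 at the spindle and kinetochore, 8 in cytokinesis and the chromosomal passenger complex, and 4 are general marks of dividing cells. The 27 genes of entry, checkpoint, spindle and cytokinesis are called the mitosis genes here.

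All mice were C57BL6 and carried the RaDR and GPT reporter alleles in homozygous form (RaDR+/+;GPT+/+). One genotype had intact Mgmt (WT), and the other lacked it in the whole body (RaDR+/+;GPT+/+;Mgmt-/-). MGMT removes methyl groups from the O6 position of guanine, and without it those lesions persist into replication. Pups received intraperitoneal saline or NDMA, at 3.5 mg/kg on postnatal day 8 and 7 mg/kg on postnatal day 15, and livers were collected at 5 times counted from the second dose: 1, 2 and 5 days, 10 weeks and 10 months. Litters were assigned to a treatment at birth, so littermates share a treatment. In order of collection, the WT groups held 26, 8, 8, 8 and 13 NDMA mice and 21, 8, 7, 8 and 10 saline mice, and the Mgmt-/- groups held 12, 8, 8, 8 and 13 NDMA mice and 12, 7, 8, 8 and 12 saline mice. Of 214 labelled samples 213 had values, from 117 WT and 96 Mgmt-/- mice, with males and females in each group.

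The values are normalized read counts from 3′ digital gene expression libraries, scaled separately in each genotype, so levels are compared only within a genotype. Reads of this kind come from the ends of transcripts, and a level set beside that of another gene is a normalized read count, not a number of molecules. Reads per library ranged from 150038 to 4791649 in WT (median 1710016) and from 713584 to 7740710 in Mgmt-/- mice (median 2347670). Hepatocyte transcripts dominated except in 2 Mgmt-/- saline libraries of day 5 that were labelled as liver. There the summed level of 8 hepatocyte genes reached at most 2522 against at least 90603 in every other Mgmt-/- library. In those 2 libraries the mean of 5 kidney genes was 4432 and 4983, against at most 4.30 elsewhere, so the day 5 counts of called genes and the fold changes of the genes named there are given with and without them. In addition, 4 WT NDMA libraries held fewer than 300000 reads, and 2 WT NDMA libraries of day 1 had sex-linked transcripts that went against their labelled sex. In bulk liver, a change in the number of cells of a type and a change in RNA per cell cannot be told apart.

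A dividing cell copies its DNA in S phase, when the MCM helicase opens the double strand and enzymes such as ribonucleotide reductase supply deoxynucleotides. It then enters mitosis under CDK1 and B-type cyclins, aligns its chromosomes on a spindle, passes the anaphase checkpoint and divides by cytokinesis. Replication genes are chiefly driven by E2F factors. Many mitosis genes are held silent in resting cells by the DREAM complex and switched on by B-MYB and FOXM1, through a word named the CHR. The liver of a newborn mouse still grows by hepatocyte division and still houses blood-forming cells, whereas adult hepatocytes rarely divide. The cyclin-dependent kinase inhibitor p21, encoded by Cdkn1a, is induced by p53 after DNA damage and restrains these programmes.

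Promoters are shown for the 3 replication and the 3 mitosis genes with an entry whose WT saline transcripts had the lowest log2 fold change from day 1 to week 10, because the series turns on how these 2 groups move. Each runs 5′ to 3′ over 300 bases, from 250 before to 50 after the RefSeq start, in GRCm38.p6. Capitals mark exact matches on either strand to TTTGAA (the CHR), TTTAAA (a CHR-like word), CCAAT, and the E2F words TTCCCGC and TTGGCGC. A match to TTGGCGC on the lower strand reads GCGCCAA, and it can share letters with CCAAT when a T follows. A match is a description of letters, not of binding.
Mcm5, chr8:75109259-75109558, plus strand: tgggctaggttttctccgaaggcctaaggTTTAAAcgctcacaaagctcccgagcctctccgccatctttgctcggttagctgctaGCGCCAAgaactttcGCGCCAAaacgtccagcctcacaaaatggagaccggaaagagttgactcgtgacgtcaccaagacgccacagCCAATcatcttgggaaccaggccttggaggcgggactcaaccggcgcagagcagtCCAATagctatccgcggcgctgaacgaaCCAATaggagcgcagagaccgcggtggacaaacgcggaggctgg
Rrm1, chr7:102441445-102441744, plus strand: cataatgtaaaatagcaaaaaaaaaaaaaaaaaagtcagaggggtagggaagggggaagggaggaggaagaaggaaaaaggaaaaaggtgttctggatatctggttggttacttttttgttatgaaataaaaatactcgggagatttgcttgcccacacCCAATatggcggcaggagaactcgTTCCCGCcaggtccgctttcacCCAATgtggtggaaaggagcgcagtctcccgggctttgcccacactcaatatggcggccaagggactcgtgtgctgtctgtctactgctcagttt
Rrm2, chr12:24708004-24708303, plus strand: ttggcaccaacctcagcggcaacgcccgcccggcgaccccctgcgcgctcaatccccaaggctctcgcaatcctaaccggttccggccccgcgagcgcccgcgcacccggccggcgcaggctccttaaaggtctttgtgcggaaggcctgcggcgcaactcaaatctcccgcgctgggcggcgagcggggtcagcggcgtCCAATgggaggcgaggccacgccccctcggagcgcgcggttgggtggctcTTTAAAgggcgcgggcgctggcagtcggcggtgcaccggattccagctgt
Nusap1, chr2:119618048-119618347, plus strand: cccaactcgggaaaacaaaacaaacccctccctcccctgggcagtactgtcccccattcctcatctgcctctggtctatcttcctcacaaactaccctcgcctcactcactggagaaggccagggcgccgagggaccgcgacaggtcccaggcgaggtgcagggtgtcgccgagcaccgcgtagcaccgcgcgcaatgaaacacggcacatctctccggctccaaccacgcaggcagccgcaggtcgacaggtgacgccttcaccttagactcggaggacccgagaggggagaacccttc
Birc5, chr11:117848987-117849286, plus strand: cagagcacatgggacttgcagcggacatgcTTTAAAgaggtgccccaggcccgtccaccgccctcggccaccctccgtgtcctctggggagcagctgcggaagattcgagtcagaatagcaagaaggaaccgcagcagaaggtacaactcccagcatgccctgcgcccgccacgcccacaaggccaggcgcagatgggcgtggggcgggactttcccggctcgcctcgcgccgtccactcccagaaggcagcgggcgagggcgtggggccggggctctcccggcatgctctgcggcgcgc
Ccnb2, chr9:70421505-70421804, minus strand: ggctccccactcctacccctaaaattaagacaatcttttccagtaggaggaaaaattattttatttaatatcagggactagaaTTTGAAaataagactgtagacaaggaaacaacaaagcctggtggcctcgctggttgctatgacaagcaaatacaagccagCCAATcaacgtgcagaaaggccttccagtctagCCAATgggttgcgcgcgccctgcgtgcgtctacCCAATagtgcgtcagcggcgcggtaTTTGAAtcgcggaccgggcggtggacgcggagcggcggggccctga

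Mcm5 (a helicase subunit) held TTTAAA as well as TTGGCGC at 2 places and CCAAT at 3, Rrm1 (the large ribonucleotide reductase subunit) held TTCCCGC and 2 CCAAT boxes, and Rrm2 (its small subunit) held TTTAAA and CCAAT. Ccnb2 (cyclin B2) held TTTGAA at 2 places and CCAAT at 3, Birc5 (survivin, of the chromosomal passenger complex) held TTTAAA alone, and these letters were not in the window of Nusap1 (a spindle microtubule bundler). Over the 38 genes with an entry, which have 42 promoters, TTTGAA was found in 75% of 24 mitosis promoters and in 7.69% of 13 replication promoters, against 17.9% of all 32851 promoters. TTTAAA stood in 29.2% of mitosis and 30.8% of replication promoters against 13.2% of all, and CCAAT in 87.5% and 76.9% against 37.4%. TTCCCGC was found in 38.5% of replication promoters and in 0 of 24 mitosis promoters against 4.6% of all, and TTGGCGC in 30.8% and 16.7% against 2.45%. The 10 genes without an entry were Ccna2, Ccne2, Mcm4, Aurkb, Foxm1, Ccnd1, Kif20a, Stmn1, Gins2 and Tpx2.

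The opening question was how these transcripts change in saline livers as the mouse matures. Between day 1 and week 10, most of the 48 genes fell in Mgmt-/- mice, and 29 of them in WT. Mean levels at week 10 were below those at day 1 for 48 of 48 genes in WT and 47 of 48 in Mgmt-/- mice, and 22 genes in each genotype had every week 10 mouse below every day 1 mouse (backgrounds 1.17% of all genes with a value above 0 in WT and 1.38% in Mgmt-/-). With every gene kept whatever its level, 29 of the 48 were lower in WT (background 2.82% of all genes) and 41 of the 48 in Mgmt-/- (background 5.78%). A gene is called here and below when its two-sided adjusted p from limma is under 0.05 and its log2 fold change is beyond 0.58 in either direction, fitted on log2(normalized count + 1) with terms for sex and batch. Fold changes on this scale understate the change of low genes. Comparisons between times share the same saline mice.

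When genes averaging under 5 over the saline mice were left out, 37 of the 48 were tested in WT and 41 in Mgmt-/-, and a gene could pass this filter through its day 1 level alone. The 37 WT genes had a median log2 fold change of -2.61 against -0.14 for all genes tested (29 lower, background 5.47%, and 0 higher, background 4.01%), and the 41 Mgmt-/- genes had -2.49 against -0.11 (37 lower, background 6.89%, and 0 higher, background 4.91%). In WT, 9 of 12 replication genes and 16 of 20 mitosis genes were lower, with medians of -2.16 and -2.88. In Mgmt-/- livers, 13 of 13 and 20 of 23 were lower, with medians of -1.95 and -2.80.

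Many mitosis genes were lower at week 10, some of them near 0. Nusap1 lay at 21.0, 37.2 and 89.8 normalized counts (lowest, median and highest) in WT day 1 saline mice and at 0, 1.7 and 9.5 at week 10. Its log2 fold change was -4.79 (SE 0.73, adjusted p 2.9e-06, limma), and all 8 week 10 mice lay below all 21 day 1 mice. Birc5 went from 66.6, 112 and 236 to 0, 4.7 and 14.1, a log2 fold change of -4.38 (SE 0.72, adjusted p 1.9e-05), again without overlap. Ccnb2 gave -4.21 and Ccnb1 (cyclin B1) -3.17, and neither overlapped between the times. Cdk1, the kinase that drives mitotic entry, went from 18, 46.4 and 80.3 to 1.5, 8.8 and 13.3 (log2 fold change -2.78, SE 0.52, adjusted p 0.0001), with no overlap. Aurkb, the passenger complex kinase, was listed at 0 in all 8 WT saline livers of week 10 and averaged 12.5 at day 1, which is at least 25.0-fold lower against a floor of 3 reads over the group. Kif20a (a cytokinesis kinesin) and Bub1b (the checkpoint protein BUBR1) did not pass in WT, at -2.34 (adjusted p 0.052) and -2.25 (adjusted p 0.055).

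The general marks Mki67 and Top2a fell in both genotypes. Mki67, the gene for the Ki67 antigen, lay at 6.8, 24.2 and 80.8 in WT day 1 saline mice and at 0, 1.5 and 3.9 at week 10 (log2 fold change -3.79, SE 0.71, adjusted p 8.7e-05). Top2a, the topoisomerase that untangles sister chromatids, went from 24.9, 56.4 and 144 to 1.4, 3.8 and 11.3 (-3.98, SE 0.74, adjusted p 0.00012). Neither gene overlapped between the 2 times, and in Mgmt-/- saline mice the same pair gave -3.91 and -3.54, also without overlap. The most negative Mgmt-/- values were those of Birc5 (-4.92), Cenpf (a kinetochore protein, -4.40), Ube2c (the ubiquitin enzyme of the anaphase-promoting complex, -4.10) and Prc1 (a midzone microtubule crosslinker, -4.08).

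Replication genes fell as well. In WT, Tyms (thymidylate synthase) went from 52.4, 101 and 178 to 33.5, 39.3 and 50.7, a log2 fold change of -1.72 (SE 0.37, adjusted p 0.00065), and Tk1 (thymidine kinase) from 60.8, 82.8 and 168 to 21.0, 32.7 and 48.7 (-1.44, SE 0.40, adjusted p 0.011). In both genes all week 10 mice lay below all day 1 mice, and the week 10 levels stayed above 20. Mcm5 gave -2.61, Gins2 (of the GINS helicase activator) -2.49, Rrm1 -2.43, Rrm2 -2.35 and Mcm6 (a helicase subunit) -2.30, and all passed in both genotypes. Mcm2 gave -2.02 in WT and did not pass there (adjusted p 0.093), while it fell by 1.88 in Mgmt-/- livers (adjusted p 0.016). Uhrf1, which recruits the maintenance DNA methyltransferase, was tested in Mgmt-/- mice alone, where it gave -2.13 (adjusted p 0.0011).

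Ccnd1 and Cks1b were not called between day 1 and week 10. Ccnd1, cyclin D1 of the G1 phase, lay at 38.4, 66.6 and 111 in WT day 1 saline mice and at 7.5, 42.7 and 100.1 at week 10, with a log2 fold change of -0.02 (SE 0.64, adjusted p 0.99). Cks1b, a small CDK-binding protein, gave 0.42 in WT (adjusted p 0.64) and -0.45 in Mgmt-/- (adjusted p 0.48). In WT the plain means of both genes were lower at week 10 than at day 1, as for all 48 genes. These WT log2 fold changes thus depend on the sex and batch terms of the fit. At 10 months Ccnd1 was higher than at week 10 in both genotypes, by 1.93 in WT (adjusted p 8.4e-06) and by 1.47 in Mgmt-/- mice (adjusted p 0.00056), with 44.3, 169 and 435 in WT and 44.7, 311 and 663 in Mgmt-/-. Cks1b fell between those times by 2.36 in WT (adjusted p 9.7e-13), where all 10 month mice, at 5.4, 9.1 and 16.2, lay below all week 10 mice, and by 1.64 in Mgmt-/-. From week 10 to month 10 as a whole, 2 of the 37 genes rose and 9 fell in WT (backgrounds 39.8% and 21.2%), and 1 of 41 rose and 9 fell in Mgmt-/- (28.8% and 17.9%). The medians of -0.40 and -0.22 stood beside 0.36 and 0.17 for all genes. Against day 1, month 10 had 34 lower and 1 higher of 37 in WT (backgrounds 21.1% and 27.7%) and 39 lower and 1 higher of 41 in Mgmt-/- (22.4% and 23.8%), Ccnd1 being the higher one in each.

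Few genes were called in saline livers over the early days. No tested gene was called in Mgmt-/- mice from day 1 to day 2 (0 of 41, background 0%), and Cenpa, the centromeric histone, fell by 1.15 by day 5 (1 of 41, background 2.47%), a call that was lost without the 2 libraries with kidney transcripts. In WT none of 37 passed at either time (backgrounds of lower genes 0.354% and 0.188%), but the medians were -0.60 and -0.80. The WT mice of days 2 and 5 and week 10 came from other library batches than those of day 1, linked only through the mice of month 10, so the batch term decides these values. With sex as the only term, 17 of 37 were lower at day 2 and 14 at day 5, against 10.4% and 5.64% of all genes. For the same reason the WT fall at week 10 rests on that link, and edgeR on recovered reads called 18 of 37 there (background 3.89%).

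**Figure D1:**
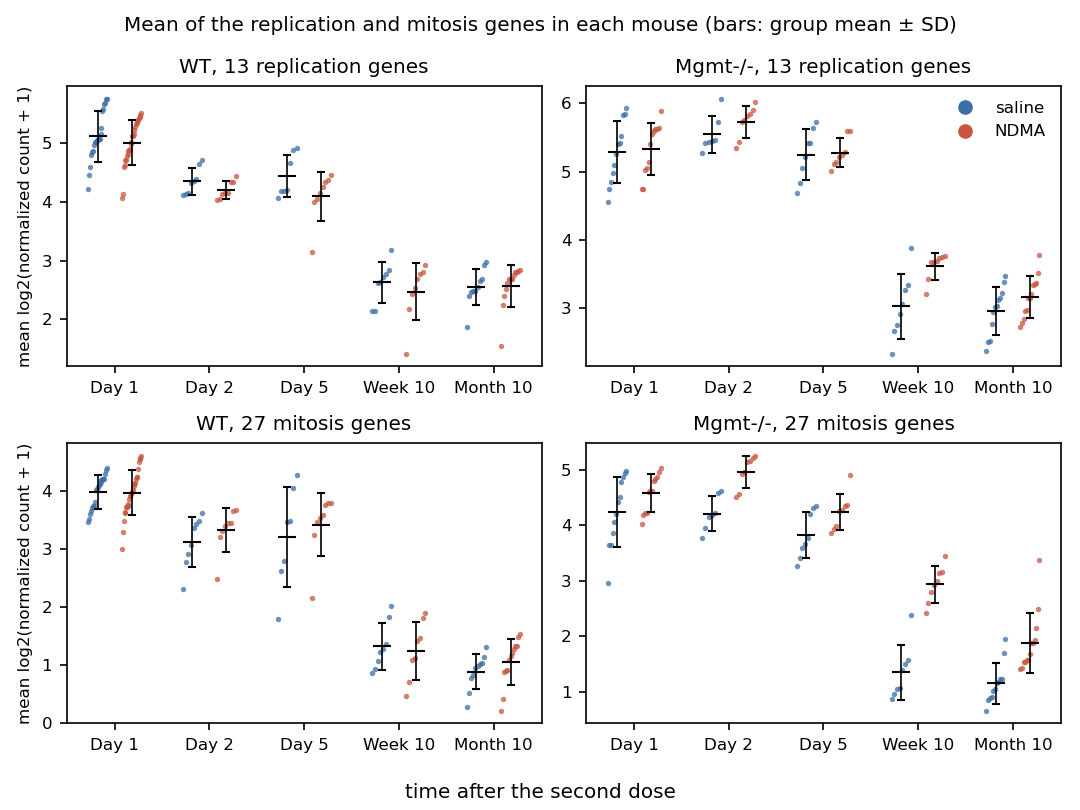
Mean log2(normalized count + 1) of the 13 replication genes and the 27 mitosis genes in each mouse (points), by collection time, in both genotypes and treatments, with bars for the group mean ± SD. The mitosis mean of Mgmt-/- saline mice averages 4.24 at day 1 and 1.35 at week 10, and at week 10 the 8 Mgmt-/- NDMA mice (2.417 to 3.45) lie above the 8 saline mice (0.8699 to 2.38).

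Other genes of these pathways were counted between day 1 and week 10 in saline livers, with the same filter, which a gene could pass through its day 1 level alone, and against the same 5.47% and 6.89% of all genes that were lower in WT and Mgmt-/-. Of 46 other mitosis genes, 20 were tested in WT and 25 in Mgmt-/-, and 16 and 21 were lower, with medians of -2.37 and -2.52. Of 32 other replication genes, 5 of 20 in WT and 13 of 21 in Mgmt-/- were lower, with medians of -1.15 and -1.14, and 1 was higher in WT (Mcm10, 1.74). Precursors of neutrophils, which divide in the neonatal liver, moved with these genes. The summed level of 8 of their genes went from 124.6 to 10.4 in WT and from 275.5 to 13.9 in Mgmt-/-, with 2 of 3 and 3 of 4 tested genes lower, and their defining genes Mpo and Ctsg stood at 0 in all WT saline livers of week 10. The summed level of 9 erythroid genes went from 438.5 to 182.7 in Mgmt-/- (3 of 4 lower), and that of 8 stellate cell genes from 1115 to 436.9 (4 of 7 lower). Genes of other cell types moved as well in Mgmt-/-, in both directions. The mean of Nkg7 went from 12.2 to 3.27 and that of Lyve1 from 55.6 to 15.3, while that of Eng went from 17.8 to 22.7. The part of any of these cells in the fall was not tested.

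The next question was whether NDMA changed these transcripts in Mgmt-/- livers. At day 1 the change was small and mixed. Of 46 genes tested, 9 rose (background 9.06%) and 1 fell (background 8.64%), and the median log2 fold change was 0.21 against 0.02 for all genes tested. The genes that rose were E2f1, Ube2c, Aurka, Cenpe, Prc1, Rrm2, Cdk1, Cks1b and Nusap1, and the gene that fell was Tk1. With no filter on low values 9 of all 48 were higher and 1 lower (backgrounds 6.39% and 5.43%).

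E2f1, the transcription factor that opens S phase, had the highest log2 fold change at 1.15 (SE 0.35, adjusted p 0.012) on low levels of 0, 2.9 and 11.5 in saline and 2.8, 9.0 and 12.5 in NDMA mice, and its saline mean of 4.39 was below 5, so it passed the filter through the NDMA group. Ube2c went from 5.0, 18.8 and 39.1 to 24.5, 36.3 and 73.7 (1.03, SE 0.19, adjusted p 8.7e-05), and 12 of 12 NDMA mice exceeded the saline median while the groups overlapped. Rrm2 lay at 22.3, 82.9 and 217 in saline and 55.5, 175 and 282 in NDMA mice, a log2 fold change of 0.89 (SE 0.18, adjusted p 0.00035). Tk1 went the other way, from 59.5, 112 and 136 to 42.7, 51.0 and 114 (-0.74, SE 0.18, adjusted p 0.0017), and 1 of 12 NDMA mice exceeded the saline median. Both S phase enzymes therefore passed the test in opposite directions. Aurkb at 0.00, Gins2 at 0.00, Tpx2 (a spindle assembly factor) at 0.08, Cenpf at -0.08 and Mki67 at -0.24 (adjusted p 0.67) did not pass.

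The day 1 calls were also counted by batch, without a test between batches. Within the batch 191212Eng 8 of 45 genes were higher and 1 lower (backgrounds 9.33% and 8.03%). Within 200803Eng, which held 4 mice of each treatment, none of 44 was called (5.5% of all genes, both directions). Males alone gave 13 higher genes of 46 (background 5.7%) with a median of 0.52, and females alone gave 1 higher and 3 lower of 46 (backgrounds 8.02% and 8.49%) with a median of -0.16. The sex-by-treatment term itself passed for none of those of the 48 genes that were tested with the filter, in any of the 10 comparisons. Hardly any other gene passed it either. Over all genes tested, it passed with a positive sign for 0.228% and with a negative sign for 0.109% in Mgmt-/- mice of month 10, for 0.0826% and 0.031% at week 10, and for 0% in the other 8 comparisons, so the count of 0 says little about these genes.

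At day 2 more of the 48 genes rose, most of them mitosis genes. Of 45 genes tested, 18 rose (background 12.4%) and 0 fell (background 7.5%), with a median log2 fold change of 0.56 against 0.03 for all genes. Among them, 15 were mitosis genes, with a median of 0.79 over the tested members of that group, 1 was a replication gene (Rrm2), with a median of 0.23, and 2 were the general marks Top2a and Hmgb2 (a chromatin protein). Of the 45, 2 (Kif11 and E2f1) had a saline mean below 5 and passed the filter through the NDMA group. With no filter 17 of all 48 were higher and 0 lower (backgrounds 8.5% and 4.51%), and the call of Bub1b was the one lost (adjusted p 0.062).

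For entry into mitosis, 5 of the 7 genes tested rose. Ccnb1 lay at 28.9, 36.7 and 55.5 in saline and at 73.5, 111 and 132 in NDMA mice, a log2 fold change of 1.45 (SE 0.16, adjusted p 8.4e-08), and the 8 NDMA mice lay above all 7 saline mice. Aurka, the centrosome kinase, went from 17.8, 22.6 and 36.1 to 39.2, 74.0 and 93.5 (1.40, SE 0.20, adjusted p 4.6e-06), also without overlap. Cdk1 went from 39.9, 53.3 and 85.1 to 77.9, 133 and 173 (1.15, SE 0.17, adjusted p 1.4e-05), with an overlap at the edges. Ccnb2 at 1.19 and Cks1b at 0.61 rose as well, while Ccna2 (cyclin A2, 0.25, adjusted p 0.59) and Plk1 (a polo-like kinase, 0.08) did not pass.

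At the checkpoint, Ube2c and Bub1b rose. Ube2c had the highest log2 fold change of the 48 genes, 1.60 (SE 0.31, adjusted p 0.00028), with 4.3, 7.4 and 19.1 in saline and 11.4, 29.0 and 47.5 in NDMA mice. Bub1b gave 0.75 (adjusted p 0.039), and Cdc20, the activator of the anaphase-promoting complex, 0.53 (adjusted p 0.13). At the spindle 5 of 6 genes rose. Cenpe, a kinetochore motor, went from 28.4, 47.9 and 53.4 to 87.5, 102 and 150 (1.25, SE 0.15, adjusted p 5.6e-07) and did not overlap between the groups. Kif11 (the bipolar spindle motor) gave 1.21, Nusap1 1.06, Tpx2 0.80 and Cenpa 0.79, and Cenpf stood at 0.58 (adjusted p 0.056).

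In cytokinesis, Kif20a, Ect2 and Prc1 rose and no NDMA mouse overlapped with a saline mouse in any of them. Kif20a went from 22.7, 34.6 and 39.5 to 44.6, 76.5 and 98.7 (1.11, SE 0.19, adjusted p 5e-05). Prc1 went from 41.2, 66.8 and 80.2 to 90.1, 132 and 181 (0.98, SE 0.16, adjusted p 3.2e-05), and Ect2, the exchange factor that starts furrowing, gave 1.00. Anln (anillin of the contractile ring) at 0.39 and Aurkb at 0.38 did not pass. In all, 9 of the 48 genes had every NDMA mouse above every saline mouse at this time and none had the reverse, against 3.72% and 1.71% of all genes with a value above 0.

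In the same mice 1 replication gene was called higher. Rrm2 rose by 0.85 (SE 0.18, adjusted p 0.0014), from 81.4, 132 and 247 to 206, 234 and 338. Rrm1 lay wholly above saline, at 106, 116 and 147 against 60.7, 82.6 and 106, but its log2 fold change of 0.57 (adjusted p 0.0018) missed the fold threshold. Tyms lay at 126, 155 and 214 in saline and 109, 122 and 140 in NDMA mice, with 0 of 8 NDMA mice above the saline median and a log2 fold change of -0.37 (SE 0.12, adjusted p 0.027). Tk1 gave -0.37 as well (SE 0.13, adjusted p 0.032), with 0 of 8 above the median, and both missed the fold threshold. The helicase subunits Mcm2, Mcm5 and Mcm6 gave 0.29, 0.56 (adjusted p 0.014) and 0.07, Gins2 0.31 and Uhrf1 0.06. Mki67, counted at 15.4, 18.5 and 44.5 in saline and 8.4, 23.5 and 37.8 in NDMA mice, had a log2 fold change of -0.01 (SE 0.26, adjusted p 0.98). In G1, Ccnd1 (0.20), Ccne1 (cyclin E1, 0.41), Ccne2 (0.02) and E2f1 (0.53) did not pass.

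**Figure D2:**
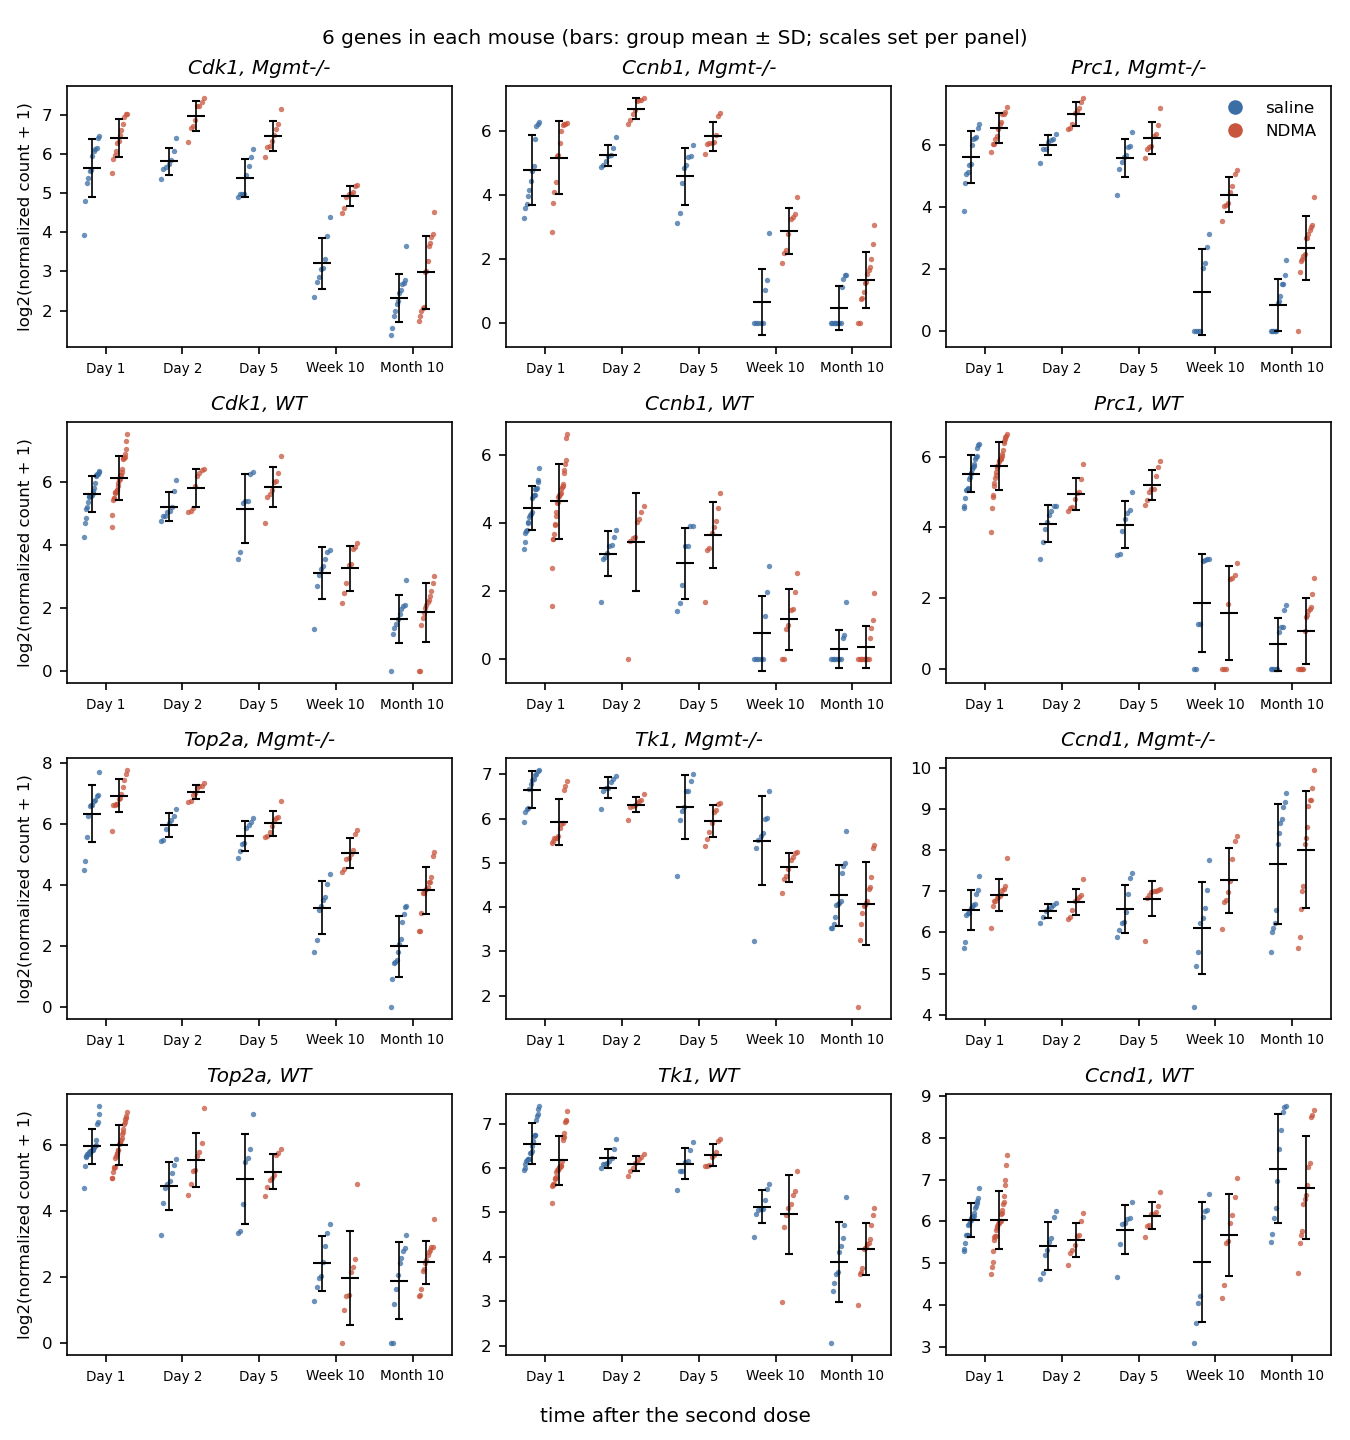
Log2(normalized count + 1) of Cdk1, Ccnb1, Prc1, Top2a, Tk1 and Ccnd1 in each mouse by collection time and treatment, in WT and Mgmt-/- livers, with bars for the group mean ± SD. Each panel has its own scale, and the scales of the genotypes are not comparable. In Mgmt-/- livers the NDMA mice lie wholly above saline for Ccnb1, Prc1 and Top2a at day 2 and for Cdk1, Prc1 and Top2a at week 10, while Tk1 lies toward lower values at day 1.

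At day 5, 6 of 42 genes rose (background 7.17%) and 0 fell (background 3.14%), with a median of 0.27. They were Ccnb1, Kif20a, Cdk1, Aurka, Cenpe and Cks1b. Cdk1 went from 28.9, 37.2 and 69.3 to 59.9, 84.2 and 141 (log2 fold change 1.08, SE 0.22, adjusted p 0.003). Ccnb1 went from 7.7, 28.7 and 46.5 to 38.2, 49.4 and 93.5 (1.26, SE 0.33, adjusted p 0.02) and Kif20a from 6.0, 17.6 and 47.4 to 30.0, 40.2 and 85.2 (1.2, SE 0.36, adjusted p 0.036). All 3 overlapped between the groups, and without the 2 libraries with kidney transcripts they gave 1.01, 1.17 and 1.06 (adjusted p 0.00086, 0.01 and 0.015). Tyms lay at 103, 126 and 223 in saline and 65.1, 91.5 and 122 in NDMA mice, with 0 of 8 above the saline median and a log2 fold change of -0.55 (adjusted p 0.047) short of the fold threshold, as it was without those libraries (-0.44, adjusted p 0.042). Aurkb (-0.53, without them -0.67), Dut (dUTPase, -0.51 and -0.39) and Mki67 (-0.45 and -0.44, adjusted p 0.38 and 0.35) gave negative values that did not pass.

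Without the 2 saline libraries with kidney transcripts, 8 genes were higher and 1 lower at day 5 (backgrounds 11.1% and 6.71%), the lower one being Tk1, and the median was 0.40. Of the 6 calls 5 were kept, and that of Cks1b was lost (0.59 with and 0.56 without them). Leaving out 1 mouse at a time gave between 2 calls (without NDMA replicate D389072) and 9 (without saline replicate D389011). When each library was set to the same total, 1 of the 6 calls was kept, that of Cdk1. The count at day 5 thus depended on single libraries.

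At week 10, when saline levels of most of these genes were near 0, the NDMA livers of Mgmt-/- mice held far more of them. Over all 48 genes, 18 rose (background 5.61%) and 0 fell (background 2.06%) with no filter on low values, the NDMA mean exceeded the saline mean for 45 genes, and the median log2 fold change was 1.13 against 0.10 for all genes. Of the 27 mitosis genes 13 rose, with a median of 1.44, and of the 13 replication genes 1 rose (Gins2), with a median of 0.54. By role, 4 of 6 spindle genes, 4 of 8 cytokinesis genes, 3 of 9 entry genes, 2 of 4 checkpoint genes, 1 of 4 G1 genes and 3 of 4 general marks rose.

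Among the genes with a mean of at least 5, 27 were tested and 13 rose (background 7.27%) while 0 fell (background 3.88%). Of those 27, 10 had a saline mean below 5 and so passed through the NDMA group alone, for which reason the count over all 48 leads here. Prc1 went from 0, 1.6 and 7.8 in saline to 10.8, 18.8 and 35.3 in NDMA mice, a log2 fold change of 3.13 (SE 0.48, adjusted p 7.1e-05), without overlap. Cenpf went from 0, 0 and 4.5 to 8.0, 14.8 and 22.5 (3.12, SE 0.44, adjusted p 2.4e-05), Ube2c from 0, 0.6 and 3.5 to 4.6, 8.9 and 13.3 (2.43, adjusted p 0.00052), and neither overlapped. Cenpe gave 2.65, Birc5 2.55, Nusap1 2.32, Ccnb2 2.01 and Aurka 1.44, in each of which the groups overlapped.

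Some genes with more reads rose too. With a mean of at least 20, 2 of 7 tested genes were called (13.2% of all genes, both directions). The genes and values that follow are those called with a mean of at least 5. Cdk1 went from 4.1, 7.5 and 19.9 to 21.5, 30.7 and 36.3 (log2 fold change 1.72, SE 0.26, adjusted p 7e-05) and Top2a from 2.5, 9.8 and 19.8 to 20.5, 30.1 and 55.6 (1.79, SE 0.32, adjusted p 0.00035), and for both the 8 NDMA mice lay above the 8 saline mice. Hmgb2 gave 1.95 (adjusted p 0.0019). Ccnd1 went from 17.2, 76.9 and 216 to 66.3, 138 and 324 (1.16, SE 0.27, adjusted p 0.0041), with 7 of 8 NDMA mice above the saline median. Ccnd1 thus rose with NDMA at week 10, although no fall with age was called for it.

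The genes called at week 10 only when no filter was set were Cdc20 (2.37), Racgap1 (a midzone GTPase regulator, 2.25), Ccnb1 (2.23), Mki67 (2.05), Kif20a (1.98) and Tpx2 (1.81), and Aurka missed the threshold in that setting. Foxm1, the transcription factor of mitotic genes, was listed at 0 in all 8 saline mice and averaged 1.198 in NDMA mice, at least 1.81-fold higher against a floor of 3 reads over the group. Foxm1 and Stmn1 (stathmin, a tubulin-binding protein) stayed below a mean of 3 in every group and were never tested with the filter.

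Of the replication genes, 1 passed. Gins2 rose from 0, 3.2 and 8.5 to 3.8, 9.6 and 18.3 (log2 fold change 1.59, SE 0.48, adjusted p 0.03). Tk1 lay at 8.4, 48.7 and 98.2 in saline and 19.0, 30.2 and 37.0 in NDMA mice, with 0 of 8 above the saline median and a log2 fold change of -0.60 (SE 0.32, adjusted p 0.27). Mcm6 gave 1.17 (adjusted p 0.091), Tyms 0.54 (adjusted p 0.097), Rrm2 0.48 (adjusted p 0.4) and Dut 0.05 (adjusted p 0.94). Cks2 (-0.12), Cks1b (0.43) and Ccne1 (0.78) did not pass either.

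Depth differed with treatment at week 10. The Mgmt-/- NDMA libraries held a median of 2.062e+06 reads and the saline libraries 1.342e+06, and a mouse had on average 2.625 of the 48 genes at 0 with NDMA and 16.5 with saline. On recovered reads, edgeR and DESeq2 each called 13 of 27 genes higher (backgrounds 7.19% and 8.06%), and libraries set to equal totals gave 16 of 29 (background 11.9%). Leaving out 1 mouse at a time gave 10 to 17 calls, and males and females alone gave 5 of 26 and 11 of 30 higher genes (backgrounds 1.68% and 5.68%).

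At month 10, Top2a rose with the filter (1 of 18 tested, background 4.75%; lower 0 of 18, background 2.99%). It lay at 0, 2.8 and 8.9 in saline and 4.6, 13.5 and 33.4 in NDMA mice, a log2 fold change of 1.84 (SE 0.34, adjusted p 0.00055), with 13 of 13 NDMA mice above the saline median and an overlap of the groups. Of those 18 genes, 5 had a saline mean below 5 and passed the filter through the NDMA group, Top2a (3.88) among them. Without a filter 6 of all 48 rose (background 3.37%) and 0 fell (background 1.56%), with a median of 0.57 against 0.06 for all genes. The 6 were Kif23 (a midzone kinesin, 1.88), Top2a, Prc1 (1.82), Cenpe (1.48), Ccne1 (1.36) and Gins2 (1.18). Birc5 gave 1.13 (adjusted p 0.051), Cdk1 0.62 (adjusted p 0.22) and Ccnd1 0.46 (adjusted p 0.18).

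The mean of the 27 mitosis genes on the log2 scale lay between 1.42 and 3.37 in the 13 NDMA mice of month 10, above 10 of the 12 saline mice (at most 1.22). The other 2 saline mice, both females, reached 1.70 and 1.95. The 3 highest NDMA mice were males, at 2.14, 2.49 and 3.37. The male at 2.14 also had the highest summed levels of neutrophil precursor (462), erythroid (500) and macrophage genes (2093) of the 25 mice, and the saline female at 1.70 the highest macrophage sum of the saline mice (1312). From saline to NDMA the macrophage sum went from 417.9 to 801.6 at month 10 (3 of 8 rose, Cd14, Lyz2 and Cd68), that of neutrophil precursors from 14.23 to 87.66 (1 of 3 rose, Prtn3) and that of cholangiocytes from 90.98 to 660.5 (1 of 2 rose, Spp1). Spp1 alone made up most of the cholangiocyte sums, with means of 71.5 and 629.6. Without the male at 2.14, the NDMA sums were 56.47 for neutrophil precursors and 408.6 for cholangiocytes, and without the saline female at 1.95 the saline sum of neutrophil precursors was 8.426. Stellate cell genes gave 608.5 and 573.8 (3 of 8 rose and 1 fell), erythroid genes 132.6 and 158.1 (0 of 2 called), and T and NK cell genes 9.399 and 17.31 (none tested). Their part in the levels of the 48 genes at month 10 was not tested. Males alone gave 5 higher genes of 20 (background 4.21%) and females alone 0 of 16 in either direction (backgrounds 1.36% higher and 1.39% lower). The difference between the sexes did not pass for any of the 18 genes of the 48 that were tested, and passed for under 1% of all genes, as given above.

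**Figure D3:**
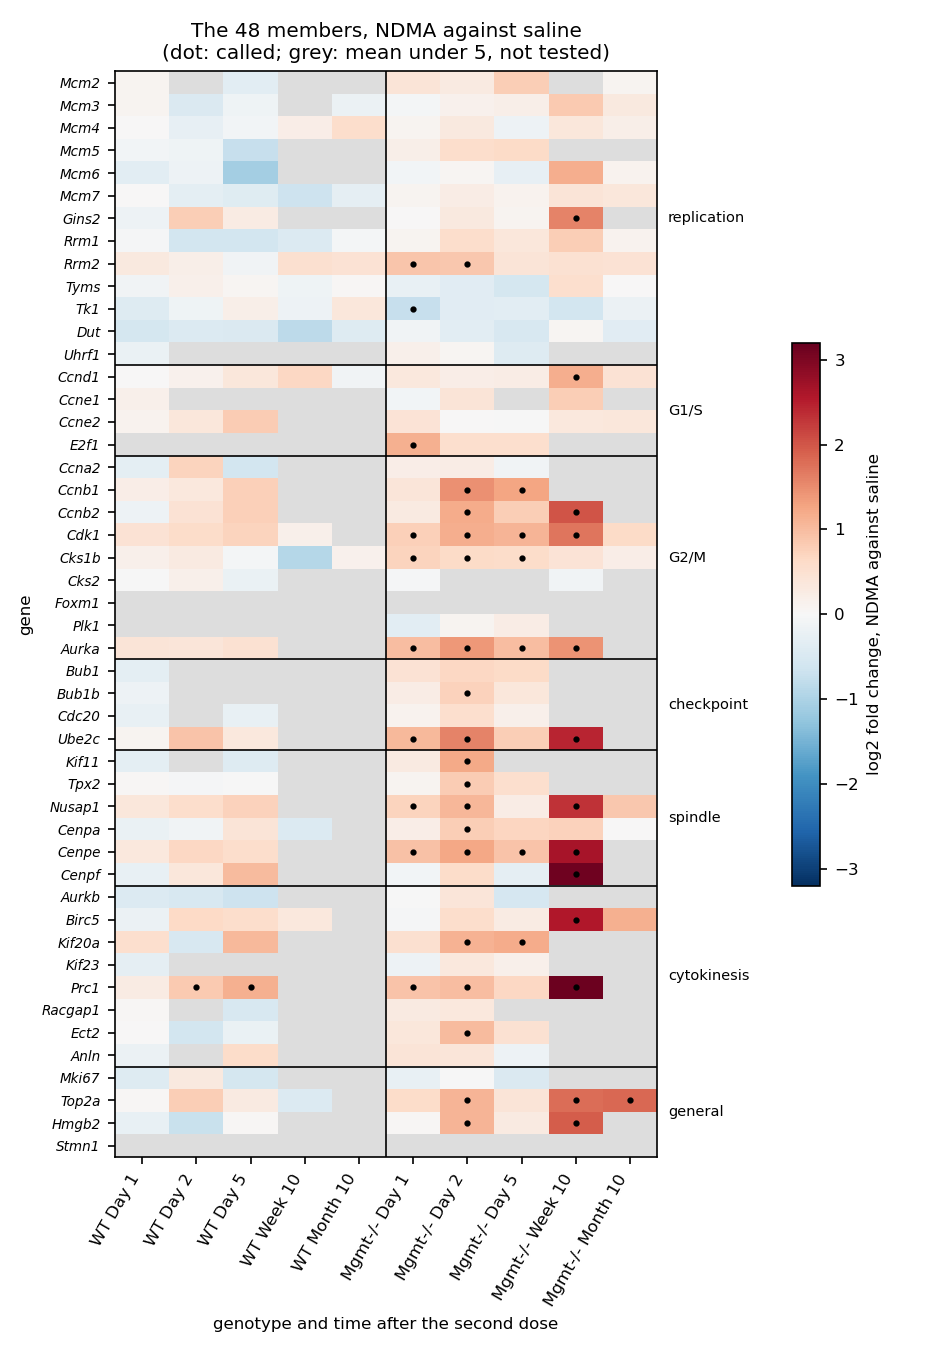
Log2 fold change of NDMA against saline for each of the 48 genes (rows, by role) in the 10 comparisons of genotype and collection time (columns), with dots on called genes and grey cells for genes with a mean below 5, which were not tested. Dots gather in the mitosis rows of the Mgmt-/- columns for day 2 (18 genes in all) and week 10 (13 genes), and the WT columns hold 2 dots, both Prc1.

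Across the 5 times in Mgmt-/- mice, which used separate saline and NDMA mice at each time, Aurka, Cdk1 and Cenpe rose 4 times with the filter, Cks1b, Nusap1, Prc1, Top2a and Ube2c 3 times, 5 genes 2 times and 10 genes 1 time, and 25 of the 48 never did. No share of all genes called so often is given. This tally depends on the filter, which 10 of 27 genes at week 10 and 5 of 18 at month 10 passed through the NDMA group. Aurka lost its week 10 call with no filter, and Cks1b its day 5 call without the libraries with kidney transcripts. With no filter, Cdc20, Racgap1, Mki67, Kif23 and Ccne1 were called at 1 of the late times. The difference between times was tested directly. From day 1 to week 10 the NDMA response of 13 of 44 genes increased (adjusted p under 0.05; background 2.5%) and 0 decreased (background 1.34%). The highest changes were those of Cenpf (3.2, adjusted p 9.3e-07), Birc5 (2.6), Mki67 (2.29), Cdc20 (2.26) and Prc1 (2.21), and Gins2 (1.58) and Mcm6 (1.25) were the replication genes among them. From day 1 to month 10 the response increased for 2 genes (background 2.85%), Kif23 (2.02) and Top2a (1.26), and from day 1 to day 2 or day 5 for none (backgrounds 0% and 3.14%). Libraries set to equal totals gave 8 in place of 13.

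In WT livers few of the 48 genes were called. At day 1, 0 of 44 genes were called (backgrounds 5.01% higher and 4.19% lower), with a median of -0.02. Kif20a gave 0.55 (adjusted p 0.036), Cdk1 0.45 (adjusted p 0.01), Dut -0.57 (adjusted p 0.01) and Tk1 -0.40 (adjusted p 0.0051), all short of the fold threshold. Cdk1 lay at 18, 46.4 and 80.3 in saline and 22.5, 65.7 and 181 in NDMA mice, and Tk1 at 60.8, 82.8 and 168 and at 36.3, 63.7 and 154.

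At days 2 and 5, Prc1 was the single gene called in WT. At day 2 (1 of 34, background 3.33%; 0 lower, background 2.91%) it went from 7.6, 18.2 and 23.2 to 21.0, 28.5 and 54.6, a log2 fold change of 0.84 (SE 0.24, adjusted p 0.036). At day 5 (1 of 39, background 2.22%; 0 lower, background 1.39%) it went from 8.2, 18 and 31.3 to 24.0, 32.9 and 57.8 (1.13, SE 0.29, adjusted p 0.035). All 8 NDMA mice exceeded the saline median at each time and the groups overlapped. Both calls were lost without a filter, and the first was lost in 9 of 16 fits that left out 1 mouse and the second in 9 of 15. The medians over all tested genes were 0.18 and 0.03, and those over mitosis genes 0.37 and 0.44 against -0.17 and -0.24 for replication genes. The lowest values at day 5 were those of Mcm6 (-1.10), Mcm5 (-0.75) and Aurkb (-0.67), none of which passed.

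In WT mice of these days each batch held 1 sex. The males, of batch 200710Eng, gave 4 higher genes of 35 at day 2 and 6 of 38 at day 5 (backgrounds 5.28% and 7.98%). The females, of batch 200724Eng, gave 0 at both times, but 0% of all genes were called in them, so this says nothing about these genes. Batch and sex cannot be told apart there. Without the libraries of fewer than 300000 reads, 4 of 35 genes were higher at day 2 and 3 of 40 at day 5 (backgrounds 5.39% and 5.48%).

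At week 10 and month 10 no gene was called in WT (0 of 13, backgrounds 0.0249% and 0%, and 0 of 10, backgrounds 0% and 0%). At week 10 the values ran from 0.65 for Ccnd1 to -0.92 for Cks1b, each with an adjusted p of 0.91. Aurkb was listed at 0 in all WT saline mice of week 10 and averaged 0.8659 in NDMA mice, at least 1.73-fold higher against a floor of 3 reads over the group. With no filter the WT count was 0 of 48 at each of the 5 times, and at week 10 and month 10 hardly any gene of any kind was called. In order of time 3.33%, 1.51%, 0.989%, 0.0126% and 0% of all genes were higher, and 2.53%, 1.25%, 0.549%, 0% and 0% lower.

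Whether the response differed between genotypes was tested as a genotype-by-treatment term with edgeR on recovered reads. At week 10 it was larger in Mgmt-/- mice for 5 of 25 genes (background 3.32%; smaller 0, background 2.46%), by 3.03 on the log2 scale for Prc1 (adjusted p 0.013), 3.00 for Nusap1 (adjusted p 0.018), 2.61 for Cenpe (adjusted p 0.041), 2.43 for Top2a (adjusted p 0.0041) and 1.54 for Cdk1 (adjusted p 0.025). Of those 25 genes, 12 reached a mean of 5 reads in the Mgmt-/- NDMA group alone and so passed the filter through it, Prc1, Nusap1 and Cenpe among them. With no filter the term passed for 8 of all 48 genes, these 5 included (background 2%; smaller 0, background 1.37%). At day 2 it passed for Rrm1 (1.16, adjusted p 0.011; 1 of 45, background 2.48%; smaller 0, background 1.46%), in a fit on 13 of the 16 WT mice, and also with no filter (1 of 48, backgrounds 2.14% and 0.972%). It passed for 0 of 46 genes at day 1 (backgrounds 0% larger and 0.00963% smaller), 0 of 45 at day 5 (0.554% and 0.178%) and 0 of 13 at month 10 (0.897% and 0.636%), so few genes of any kind passed at those times. No batch held both genotypes at day 2, day 5 or week 10, so at those times genotype and batch cannot be told apart.

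Setting replication beside mitosis in each mouse gave a measure within a liver. In Mgmt-/- mice the mean log2 level of the replication genes minus that of the mitosis genes averaged 1.34 in saline and 0.766 in NDMA mice at day 2, with ranges of 1.11 to 1.5 and 0.598 to 0.932 that did not overlap. In saline and NDMA mice the averages were 1.05 and 0.757 at day 1, and 1.43 and 1.04 at day 5 with all libraries kept. They were 1.68 and 0.684 at week 10, and 1.81 and 1.29 at month 10. At each of these other times the Mgmt-/- ranges overlapped, at day 5 with all libraries kept. In WT saline mice the averages were, in order of time, 1.135, 1.231, 1.231, 1.31 and 1.664, and in WT NDMA mice 1.036, 0.8745, 0.6794, 1.22 and 1.515, with ranges that overlapped at each time. Within batches, the Mgmt-/- NDMA average was the smaller in both batches of day 1 (1.131 and 0.8093, and 0.8918 and 0.6515), and the later Mgmt-/- groups held 1 batch each. In WT it was the larger in 2 of the 3 batches of day 1 (1.024 and 1.056 in 191212Eng, 0.7015 and 0.7889 in 200803Eng, against 1.426 and 1.146 in 210901Eng) and in 1 of the 2 batches of week 10 (1.454 and 1.46 in 200710Eng), so the WT averages of those times moved with the batch. A difference between genotypes in this measure was not tested. In Mgmt-/- mice mean levels of the mitosis genes were 4.24, 4.21, 3.82, 1.35 and 1.15 in saline and 4.58, 4.96, 4.24, 2.93 and 1.88 in NDMA mice in that order, and those of the replication genes 5.29, 5.55, 5.25, 3.03 and 2.96 and 5.34, 5.73, 5.28, 3.62 and 3.17. These are descriptions of chosen genes and carry no test.

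**Figure D4:**
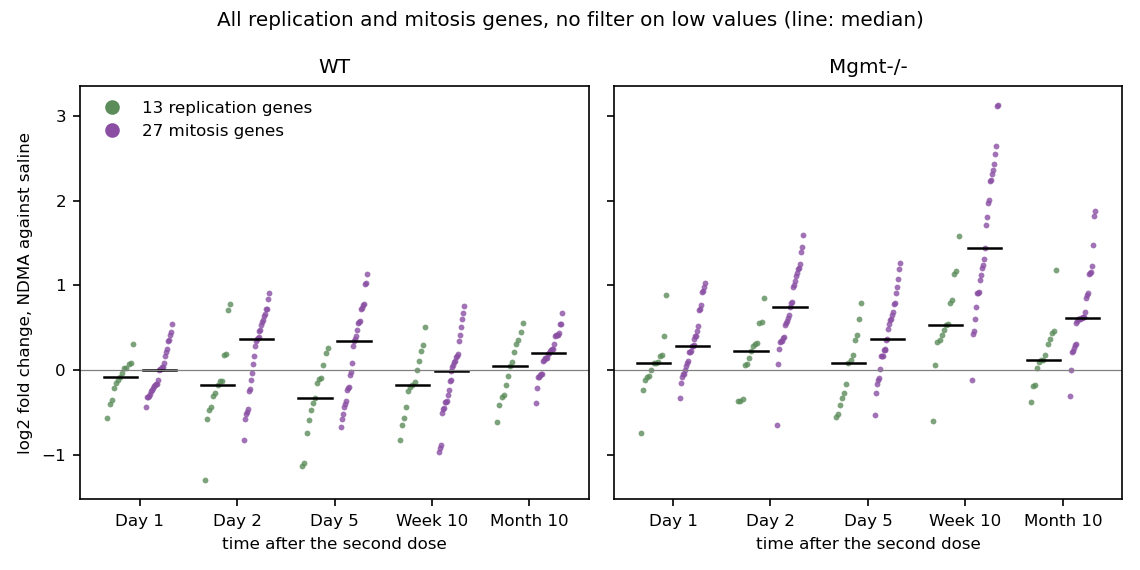
Log2 fold change of NDMA against saline of each of the 13 replication and 27 mitosis genes (points), with no filter on low values, by collection time in WT and Mgmt-/- livers, and a line at the median of each group. In Mgmt-/- livers the medians at week 10 are 0.54 for replication and 1.44 for mitosis genes.

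Other genes of these pathways were read in the same comparisons, against the shares of all genes given above for each of them (in Mgmt-/- mice, in order of time, 9.06%, 12.4%, 7.17%, 7.27% and 4.75% for higher genes, and 8.64%, 7.5%, 3.14%, 3.88% and 2.99% for lower genes). Of 46 other mitosis genes in Mgmt-/- mice, 4 of 38 tested rose and 1 fell at day 1, 17 of 37 rose and 1 fell at day 2, and 2 of 31 rose and 1 fell at day 5 (4 and 2 of 30 without the libraries with kidney transcripts). The counts of day 1 and day 5 were thus near those shares. At week 10, 7 of 14 rose, and at month 10, 1 of 9, with medians of 0.23, 0.68, 0.39 (0.29 without those libraries), 1.33 and 0.22. A gene could pass this filter through the NDMA group alone, as 10 of the 27 genes tested among the 48 did at week 10. Counts with no filter are not given for these lists. Ckap2, a spindle protein, led at the early times with 2.05, 2.25 and 1.86 (1.94 without those libraries), and Hmmr (2.63) at week 10. Of 32 other replication genes, 2 of 26 rose on day 1, 6 of 25 on day 2 and 1 of 24 on day 5 (2 of 24 without those libraries), 1 of 17 fell at week 10 (Mcm10, -0.98) and 1 of 18 rose at month 10 (Lig1, DNA ligase 1, 0.98), with medians of 0.11, 0.26, 0.18 (0.14 without those libraries), 0.03 and 0.08. In WT, the other mitosis genes gave 1 of 31 higher at day 1, 2 of 21 at day 2 and 0 of 22 at day 5, the other replication genes 1 of 26, 1 of 19 and 0 of 20, and none was called later. Pcna, the sliding clamp of replication, was not called at any time in either genotype. At week 10 Pcna lay at 3.56, 11.4 and 18.1 in Mgmt-/- saline and 5.28, 13.1 and 16.1 in NDMA mice, a log2 fold change of 0.28.

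Of 21 listed brakes of the cell cycle, only Cdkn1a, Ccng1, E2f8 and Cdkn1c are described here, with values in both directions. A count over the list is not given. Cdkn1a rose at every time in Mgmt-/- livers. It went from 12.2, 25.6 and 44.2 to 347, 566 and 679 at day 1 (log2 fold change 4.42, SE 0.15, adjusted p 3.7e-23) and from 1.51, 5.92 and 8.48 to 97.7, 170 and 349 at week 10 (4.95, SE 0.32, adjusted p 1.8e-10). No NDMA mouse overlapped with a saline mouse at days 1, 2 and 5 or week 10, and at month 10 the log2 fold change was 2.13 with an overlap. Ccng1, another p53 target, gave 3.44, 3.49, 2.43 (2.83 without the libraries with kidney transcripts) and 1.04 and was called at the first 4 times, and -0.07 at month 10. E2f8, an atypical E2F repressor, fell at day 2 (-1.0, adjusted p 0.0074), and Cdkn1c, the inhibitor p57, was the lowest of these genes at days 1, 2 and 5 (-2.07, -1.94 and -2.30, the last -1.71 without the libraries with kidney transcripts). The livers in which mitosis genes rose at day 2 and week 10 thus also held high Cdkn1a. In WT, Cdkn1a rose by 3.28, 3.35 and 3.98 at days 1, 2 and 5 and was not called at week 10 (1.36, adjusted p 0.91) or month 10 (1.60, adjusted p 0.44).

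Among genes that drive G1, other than the 4 above, 2 of 10 rose on day 1 in Mgmt-/- livers, 1 of 9 on day 2, 2 of 9 on day 5 (also without the libraries with kidney transcripts), 1 of 8 at week 10 and 1 of 9 at month 10, and none fell. Over all genes, 9.06%, 12.4%, 7.17% (11.1% without those libraries), 7.27% and 4.75% rose in that order. With 8 to 10 genes tested, counts of 1 or 2 say little beyond these shares. Ccnd2, cyclin D2, was called at every time, with log2 fold changes of 0.61, 0.66, 0.61 (0.82 without those libraries), 1.32 and 0.92, and Cdc25a (0.86) and Cdk6 (0.69 with and without them) were the others, at days 1 and 5.

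Other cell types moved with treatment in the Mgmt-/- livers in which some of the 48 genes rose. The summed level of 8 T and NK cell genes went from 38.3 to 225 at day 2, where 4 of 4 tested rose, with Nkg7 the most abundant at 70.4 in NDMA mice. It went from 27.8 to 247 at day 5 (from 33.64 without the 2 saline libraries with kidney transcripts) and from 17.1 to 36.5 at week 10, where 1 of 3 rose. The summed level of 8 macrophage genes went from 945.5 to 2298 at day 2 (5 of 8 rose) and from 646.6 to 1468 at week 10 (4 of 8 rose), with Lyz2 the most abundant, at 1400 and 800 in NDMA mice. At day 1 the mean of Nkg7 went from 12.2 to 39.7 and that of Cd4 from 0.833 to 0.804. Among macrophage genes of day 1, Lyz2 went from 382.5 to 764.6 and Clec4f from 268.2 to 122.6. At day 5, with the libraries with kidney transcripts kept, Lyz2 went from 278.0 to 944.8 and Clec4f from 220.3 to 206.2. Activated lymphocytes and macrophages can divide, and their part in the rise was not tested.

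Neutrophil precursor genes went from 164 to 76.3 at day 2 (1 of the tested genes rose and 2 fell). At week 10 the sum went from 13.9 to 50.4, where 2 of 3 tested rose, led by Camp (3.31 to 18.2), while Mpo, Ctsg and Ms4a3 stood at 0 in all 8 saline mice. Erythroid genes went from 454 to 234 at day 2 (2 fell) and from 183 to 129 at week 10 (0 of 2 called). Means of stellate cell genes moved both ways at day 2, with Acta2 from 30.35 to 125.9, without overlap, and Reln from 49.08 to 10.96. At day 1 Acta2 went from 18.13 to 62.33 and Reln from 66.01 to 15.995. Endothelial genes of day 2 also moved both ways. Lyve1 went from 69.59 to 136.8 and Pecam1 from 23.15 to 42.64, but Stab2 from 44.73 to 22.63 and Clec4g from 266.1 to 196.3. Stellate cell genes went from 437 to 712 at week 10 (4 of 7 rose, Col3a1 from 24.9 to 78.0), and cholangiocyte genes from 150 to 954 (1 of 2 rose, Spp1 by 3.13), the saline sum being 81.75 without the 1 mouse that reached 628.7 (replicate D209003). Spp1 alone made up most of the cholangiocyte sums, with means of 141.6 in saline and 930.3 in NDMA mice. The other genes of that list averaged at most 10.3 (Sox9 in NDMA mice). At that time 1 of 2 B and plasma cell genes (Jchain) and 1 of 7 endothelial genes (Lyve1) also rose. Camp (3.31) and Jchain (3.42) had saline means below 5 at week 10, so both passed the filter through the NDMA group. Hepatocyte genes went from 3.652e+05 to 2.403e+05 at day 2 (3 fell) and from 1.895e+05 to 1.371e+05 at week 10 (1 fell). The part of these cells in the changes of the 48 genes was not tested.

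In WT the T and NK cell sum was 48.29 in saline and 98.74 in NDMA mice at day 2 (2 of 4 tested rose, Cd3d and Nkg7), 33.09 and 85.53 at day 5 (3 of 4 rose), and 21.05 and 21.51 at week 10 (0 of 2 called). The WT macrophage sum was 925.5 and 965.3 at day 2 (2 of 8 rose and 2 fell), 679.6 and 1070 at day 5 (1 of 8 rose), and 725.9 and 688.5 at week 10 (0 of 8 called).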

How the data were processed

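The libraries, labelled as liver RNA of 213 mice, were of the 3′ digital gene expression kind. The deposited values are normalized read counts (a signal per gene): per the labels, the authors aligned reads with STAR to GRCm38/mm10, counted them with ESAT and divided them by DESeq2 size factors, in each genotype separately. Whole reads were recovered from these values in 209 of 213 columns (tolerance 0.01 of a read) and used for edgeR 4.0.16 and DESeq2 1.42.0.

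Mice were grouped by their labels, and no 2 libraries of a group agreed within sampling noise. NDMA was compared with saline within genotype and time, and saline times within genotype, with limma 3.58.1 (trend, robust, R 4.3.3) on log2(value + 1) with sex and batch, over all genes with a mean of at least 5, adjusted by Benjamini-Hochberg. A gene was called when its adjusted p was under 0.05 and its log2 fold change beyond 0.58 either way; for differences of the response between times, genotypes and sexes the former was enough. Promoters came from RefSeq (GRCm38.p6), where 38 of 48 genes matched. Genes named with values were 24 chosen across the roles, Pcna, Cdkn1a, Ccng1 and E2f8, and the 3 highest and 3 lowest log2 fold changes of a comparison. Members, lists and tests were chosen with earlier results of these data known. Scripts were tested on simulated data. Alternatives covered the pseudocount, filter, scaling, covariates, count models, batches, sexes and single mice; some were added after seeing the data. Read totals give counting precision only.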

Additional observations from a re-analysis of the deposited data

Results flagged for a closer look

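In groups of 4 to 10 mice, the highest or lowest value of 208 sets (a gene or a mean over genes in a group) was tested for a gap to the other mice. Such a gap was found in 25 sets. The limit used gives about 1 in 20 for independent, normally distributed values. These sets share mice and genes and include low counts, so the 25 cannot be read against that share. Means over genes are on the log2(normalized count + 1) scale.

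In WT NDMA mice of day 2, 1 library with 150038 reads had a mean over the 48 genes of 3.08 (next 3.52) and over the mitosis genes of 2.47 (next 3.21), with Top2a at 136.7 (next 65.9) and Cenpf at 31.6 (next 18.2). At day 5, 1 WT NDMA library with 202626 reads had a mean over the 48 genes of 2.63 (next 3.49), over replication genes of 3.14 (next 4.0) and over mitosis genes of 2.15 (next 3.25), with Nusap1 at 98.4 (next 46.3). In Mgmt-/- saline mice of week 10, 1 liver had a mean over the 48 genes of 2.88 (next 2.08), over the mitosis genes of 2.38 (next 1.57), and Ccnb1 at 6.06 (next 1.51).

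Single genes stood apart elsewhere. In Mgmt-/- mice these were Top2a at 107.36 (next 74.1) and Ccnd1 at 54.0 (next 112.9) with NDMA at day 5, Cenpf at 12.8 (next 38.7) and Mki67 at 44.5 (next 22.2) in saline at day 2, and Cenpf at 72.2 (next 32.8) in saline at day 5. In WT they were Top2a at 27.4 (next 4.77) with NDMA at week 10, and, in saline mice, Top2a at 121.6 (next 57.0) and Tyms at 136.2 (next 71.5) at day 5 and Cenpf at 8.45 (next 3.04) at week 10. In WT saline mice of month 10, they were a replication mean of 1.87 (next 2.40), Cdk1 at 6.30 (next 3.27), Ccnb1 at 2.18 (next 0.62), Rrm2 at 21.7 (next 10.9) and Nusap1 at 9.03 (next 3.27).

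The tests of a difference between groups passed for 21 values. The genotype-by-treatment term passed at day 2 for Rrm1 (1.16) and at week 10 for Prc1 (3.03), Nusap1 (3.00), Cenpe (2.61), Top2a (2.43) and Cdk1 (1.54). In Mgmt-/- mice the change of the NDMA response from day 1 to week 10 passed for Cenpf (3.2), Birc5 (2.6), Mki67 (2.29), Cdc20 (2.26), Prc1 (2.21), Racgap1 (1.96), Hmgb2 (1.90), Ccnb1 (1.84), Tpx2 (1.73), Cenpe (1.71), Ccnb2 (1.71), Gins2 (1.58) and Mcm6 (1.25), and from day 1 to month 10 for Kif23 (2.02) and Top2a (1.26).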

How the results depend on the processing

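No paired analysis was possible because the replicate codes of the labels are not shared between groups. No called value changed sign, but 8 medians, which carry no test, did, those of Mgmt-/- day 1 (0.21, -0.16 in females), WT day 1 (-0.02, up to 0.02), day 5 (0.03, down to -0.29 in females) and month 10 (-0.01, up to 0.36), Mgmt-/- saline day 2 (0.02, down to -0.17), the change of response from day 1 to 5 in Mgmt-/- (-0.01, 0.04) and from day 2 to 5 in WT (0.06, down to -0.18), and the genotype term at day 5 (0.14, -0.05 without TMM). Of summary values, 114 did not stay close to the reported value, and of single genes 2306 kept their call, 226 lost it and 0 reversed; the causes were not tested. Depth limits all genes near 0.

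NDMA, genes called, WT, each with the percent of all genes called in that setting, both directions, in brackets. Day 1 (0): pseudocount 0.5 (9.49%), equal totals (8.75%), edgeR (9.61%) and DESeq2 (9.89%) gave 1 each, no fold threshold 5 (21.1%), without the 2 libraries against their labelled sex 2 (10.8%), batch 210901Eng alone 5 (11.7%). These counts lay near or below the shares of all genes. Day 2 (1): no filter (2.76%) and treatment alone (4.51%) 0, edgeR (6.43%) and DESeq2 (7.31%) 2, without libraries under 300000 reads 4 (10.2%), batch 200710Eng (males) 4 (9.5%), batch 200724Eng (females) 0 (0%). Day 5 (1): no filter (1.54%), treatment alone (1.73%) and equal totals (3.42%) 0, without low-read libraries 3 (9.19%), males 6 (13.3%), females 0 (0%). Month 10: the median of -0.01 was 0.36 in batch 200710Eng and -0.38 in 200724Eng.

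NDMA, Mgmt-/-. Day 1 (10): batch 200803Eng alone 0 (5.5%), females 4 (16.5%). Day 5 (6): equal totals 1 (8.02%), males 0 (2.87%), females 1 (1.88%). Week 10 (13, median 1.16): pseudocount 5 gave a median of 0.66 and a replication minus mitosis difference of medians of -0.87, no filter one of -0.90, a mean of at least 20 gave 2 calls (13.2%) and 0.43, males 5 (2.02%). Month 10 (1, median 0.26): a mean of at least 20 gave 0 (8.07%), no filter 6 (4.93%), DESeq2 2 (8.85%), males 5 (5.79%) and 0.59, females 0 (2.75%).

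Leaving out 1 mouse gave, in genes called and medians, 16 to 22 and 0.46 to 0.63 (Mgmt-/- day 2), 2 to 9 and 0.20 to 0.39 (day 5), 10 to 17 and 0.90 to 1.30 (week 10), 0 to 4 and 0.10 to 0.26 (WT day 2), 0 to 3 and -0.17 to 0.31 (day 5), and 0 and -0.28 to -0.02 (week 10).

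Saline over time, WT. Day 2: sex alone 17 (17.3%), medians -1.03 (edgeR) and -1.12 (DESeq2). Day 5: sex alone 14 (11.1%). Week 10: pseudocount 5 median -1.66, a mean of at least 20 11 (14.7%), edgeR 18 (8.47%). Month 10 against day 1: medians -3.36 and -1.94 (pseudocounts 0.5 and 5), -2.62 with 14 called (61.9%, a mean of at least 20), -3.28 (sex alone), -3.70 (edgeR) and -3.77 (DESeq2). Against week 10: pseudocount 5 7 (57.7%), a mean of at least 20 7 (64.7%), edgeR -0.87, DESeq2 -0.81.

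Saline over time, Mgmt-/-. Day 5 (1): pseudocount 5 (3.86%), edgeR (9.07%) and DESeq2 (8.89%) 4 each, sex alone 3 (14.9%), equal totals 0 (2.18%), without kidney libraries 0 (5.23%). Week 10: pseudocount 5 median -1.60, a mean of at least 20 17 (13.3%). Month 10 against day 1: medians -3.23 and -1.79 (pseudocounts 0.5 and 5), -3.01 (sex alone), -3.27 (edgeR) and -3.41 (DESeq2), a mean of at least 20 19 (54.6%). Against week 10: pseudocount 5 5 (42.7%), a mean of at least 20 6 (51.1%), edgeR -0.64, DESeq2 -0.67. Change of the response from day 1: week 10 equal totals 8 (3.17%); month 10 equal totals 1 (6.76%), without kidney libraries 4 (9.43%), edgeR 5 (5.01%) and a median of 0.82. Genotype term at week 10 (5, median 1.01): library totals without TMM 10 (6.95%), and, added after seeing the data, no filter 8 (3.37%) with a median of 1.49.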
